A study of Mus musculus with 18 samples.

Results

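The expression of 47 genes of the bone morphogenetic protein (BMP) and transforming growth factor β (TGF-β) pathway was examined in the lungs of mice of 3 genotypes kept in normoxia or chronic hypoxia. The genes were taken by symbol from a list of 47 names. All 47 were found among the 23356 features of the deposited table, and all 47 passed the filter on low counts that left 15388 genes for testing. They comprised 9 ligands of the BMP branch, 5 ligands of the TGF-β and activin branch, 11 receptors and co-receptors, 10 extracellular modulators and antagonists, 6 receptor-regulated or common Smads, 2 inhibitory Smads and 4 Id target genes.

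Ligands of this family bring together type I and type II serine/threonine kinase receptors, which phosphorylate receptor-regulated Smad proteins. These enter the nucleus with Smad4 and change transcription, and the Id genes and the inhibitory Smads 6 and 7 are among the transcripts they induce. In the lung vasculature the pathway is known above all through BMPR2, ALK1 (the product of Acvrl1) and endoglin (Eng), whose mutations in humans cause heritable pulmonary arterial hypertension or hereditary haemorrhagic telangiectasia.

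Male C57BL/6 mice were used, and poly(A) RNA of their whole lungs was sequenced. They were wild type, β-arrestin 1 -/- or labelled β-arrestin 2 -/-. The β-arrestins are scaffolds best known for switching off G protein-coupled receptors once these are activated. Mice entered the exposure at 8 to 12 weeks of age and were 12 to 16 weeks old after 4 weeks, in normoxia at an oxygen pressure of about 150 mmHg or in hypoxia at the pressure of 18000 feet, about 70 mmHg. There were 3 libraries, numbered 0 to 2, in each of 6 groups, and since no label ties a library to its own animal, a p-value speaks only of the spread among libraries, which may be technical. Both knockouts are given as whole-animal genotypes, and wild type mice of each exposure served as the controls of both lines.

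Library totals ran from 16806806 to 25980876 estimated fragments. The alveolar genes Sftpb (1229 to 2059.7 FPKM) and Ager (2004 to 4409.9 FPKM) and the endothelial gene Pecam1 (249 to 426 FPKM) were high in every library. Arrb1, the gene of β-arrestin 1, stood at 474, 464 and 478 CPM, fragments scaled to library size, in wild type normoxia and at 87.5, 118 and 107 in β-arrestin 1 -/- normoxia, a log2 change of -2.18 ± 0.12 (SE, adjusted p = 4.01e-08, edgeR). Arrb2, the gene of β-arrestin 2, stood at 31.5, 30.2 and 35.1 CPM in wild type normoxia and at 46.5, 38.9 and 36.6 in normoxia under the label β-arrestin 2 -/-, a log2 change of 0.33 ± 0.20 (adjusted p = 0.256). It was thus no lower there, its total does not tell which exons were covered, and these 6 libraries are called by their label throughout. The kit does not mark strand, so fragments of a gene and of a partner on the other strand cannot be told apart. Such a partner shares exon bases with 13 of the 47 genes, among them Fst, Tgfb2, Tgfb3, Bmp4, Ltbp2, Ltbp3, Acvrl1, Eng and Id4. Long transcripts were less well represented in some libraries than in others. A length index, the median log2 deviation of 1620 genes with transcripts of at least 6000 bases minus that of 2678 genes with at most 2000 bases, was -0.78 in β-arrestin 1 -/- hypoxia replicate 2, -0.49, -0.21 and -0.21 in the normoxia libraries labelled β-arrestin 2 -/-, and between -0.13 and 0.34 in the others. The 2 libraries with the lowest index also had the 2 lowest totals.

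The level of each gene is given first, as FPKM, fragments scaled to transcript length and library size, so that genes of different length can be set side by side. Id3 had the highest median of the 47, 296 FPKM over the 18 libraries (range 222 to 675). Ltbp4, a latent TGF-β binding protein of the elastic matrix, followed at 254. The endothelial receptors Acvrl1 (231) and Eng (204) came next, and then Id1 (171) and Smad6 (100.4). The ranges of Ltbp4 (179 to 298), Acvrl1 (150.3 to 326) and Eng (135 to 268) overlapped with each other and with that of Id3, so the order of these 4 is not beyond the spread of libraries. Among the ligands Bmp6 was highest at 86.4 FPKM (range 48.97 to 98.1), followed by Tgfb1 at 47.6 and Bmp4 at 28.4. The type II receptors differed widely in level. Tgfbr2 had a median of 75.8 FPKM, Bmpr2 of 38.6, Acvr2a of 8.53 and Acvr2b of 2.104. Of the Smads that carry the BMP signal, Smad5 (19.5) and Smad1 (17.6) were each above Smad9 (2.68), whose range of 1.48 to 3.91 FPKM did not reach theirs. At the bottom stood Bmp7 (0.764), Gdf2 (0.484), Nog (0.4297), Inhba (0.292) and Grem1 (0.1303). Grem1 and Inhba, the gremlin and activin A subunit genes, had as few as 1 fragment in a library, and Nog and Gdf2 as few as 7, so changes of these 4 genes rest on few fragments.

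**Figure D1:**
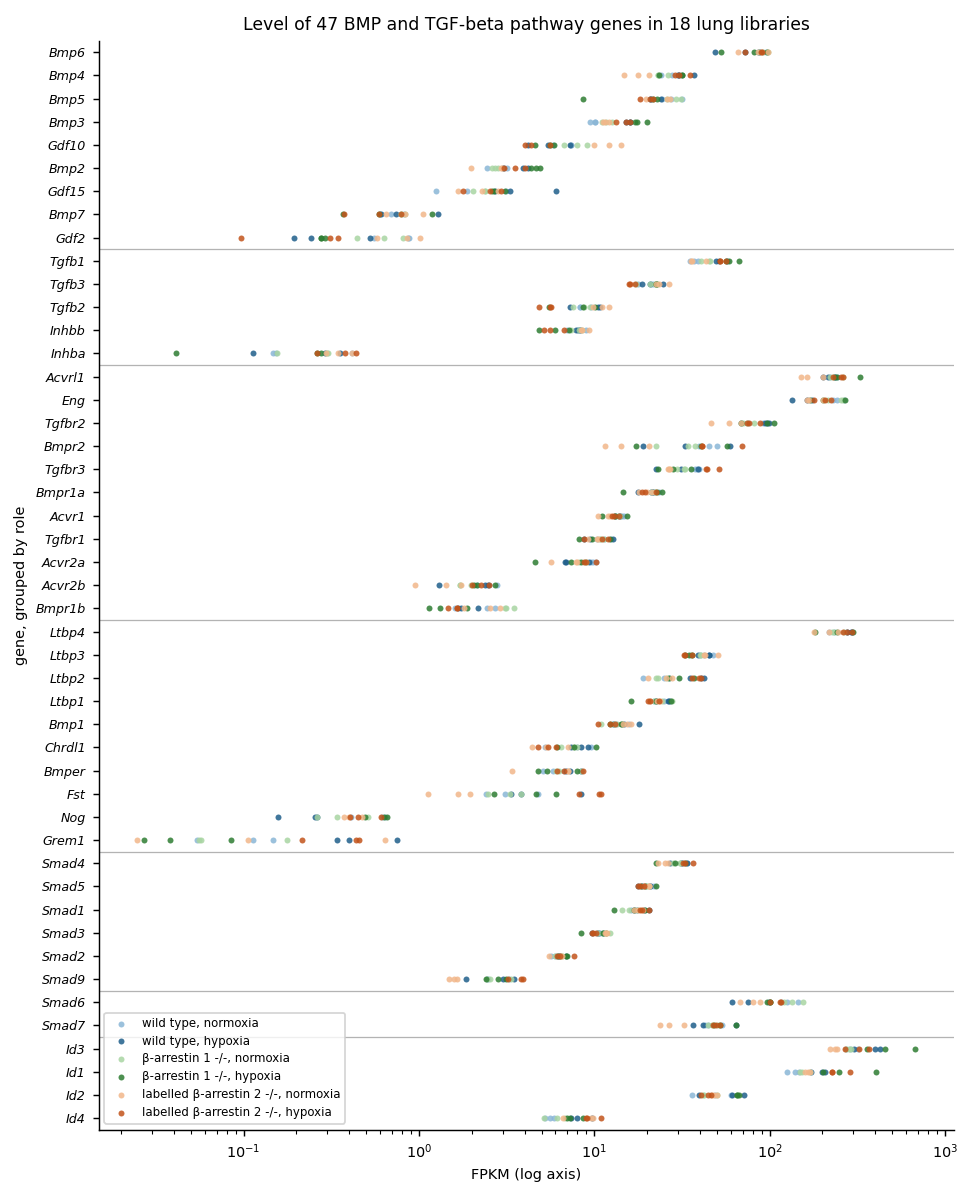
Level of the 47 genes in 18 libraries, in FPKM on a log axis, grouped by role and coloured by group; each point is 1 library. Id3, Ltbp4, Acvrl1, Eng, Id1 and Smad6 have medians above 100 FPKM, while Bmp7, Gdf2, Nog, Inhba and Grem1 have medians under 1 FPKM.

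What chronic hypoxia changed was asked in each genotype, from all 18 libraries in 1 edgeR fit with p-values adjusted over all 15388 genes and a threshold of 0.05. In wild type 6 of the 47 genes changed, 3 higher and 3 lower, against 4.76% of all genes tested (2.85% higher and 1.92% lower). In β-arrestin 1 -/- lungs 6 changed, 5 higher and 1 lower, against 2.95% of all genes (1.84% higher and 1.11% lower). In the line labelled β-arrestin 2 -/- 21 changed, 13 higher and 8 lower, against 21.9% of all genes (11.1% higher and 10.8% lower). The median log2 change of the 47 genes was 0.06 in wild type, 0.01 in β-arrestin 1 -/- and 0.16 in the line labelled β-arrestin 2 -/-, where that of all genes was 0.00, 0.02 and -0.04. The 3 comparisons share no library. Tgfb1 and Bmp3 were called in all 3 genotypes, Bmpr1b, Id1, Ltbp2 and Smad6 in 2, a further 19 genes in 1 and 22 in none. Smad6 fell in wild type and rose in the line labelled β-arrestin 2 -/-. How many of all genes were called in more than 1 genotype was not counted, so these numbers stand without a background. Without wild type normoxia replicate 1 the wild type count was 2, and without β-arrestin 1 -/- normoxia replicate 0 the count of that line was 1. In the line labelled β-arrestin 2 -/- it was 13 without hypoxia replicate 0. Fitted on the 6 β-arrestin 1 -/- libraries alone, none of that line's 6 calls passed, with adjusted p of 0.0792 for Bmp3, 0.0819 for Bmp2, 0.08204 for Bmpr1b, 0.1501 for Tgfb1, 0.206 for Id3 and 0.235 for Id1.

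**Figure D2:**
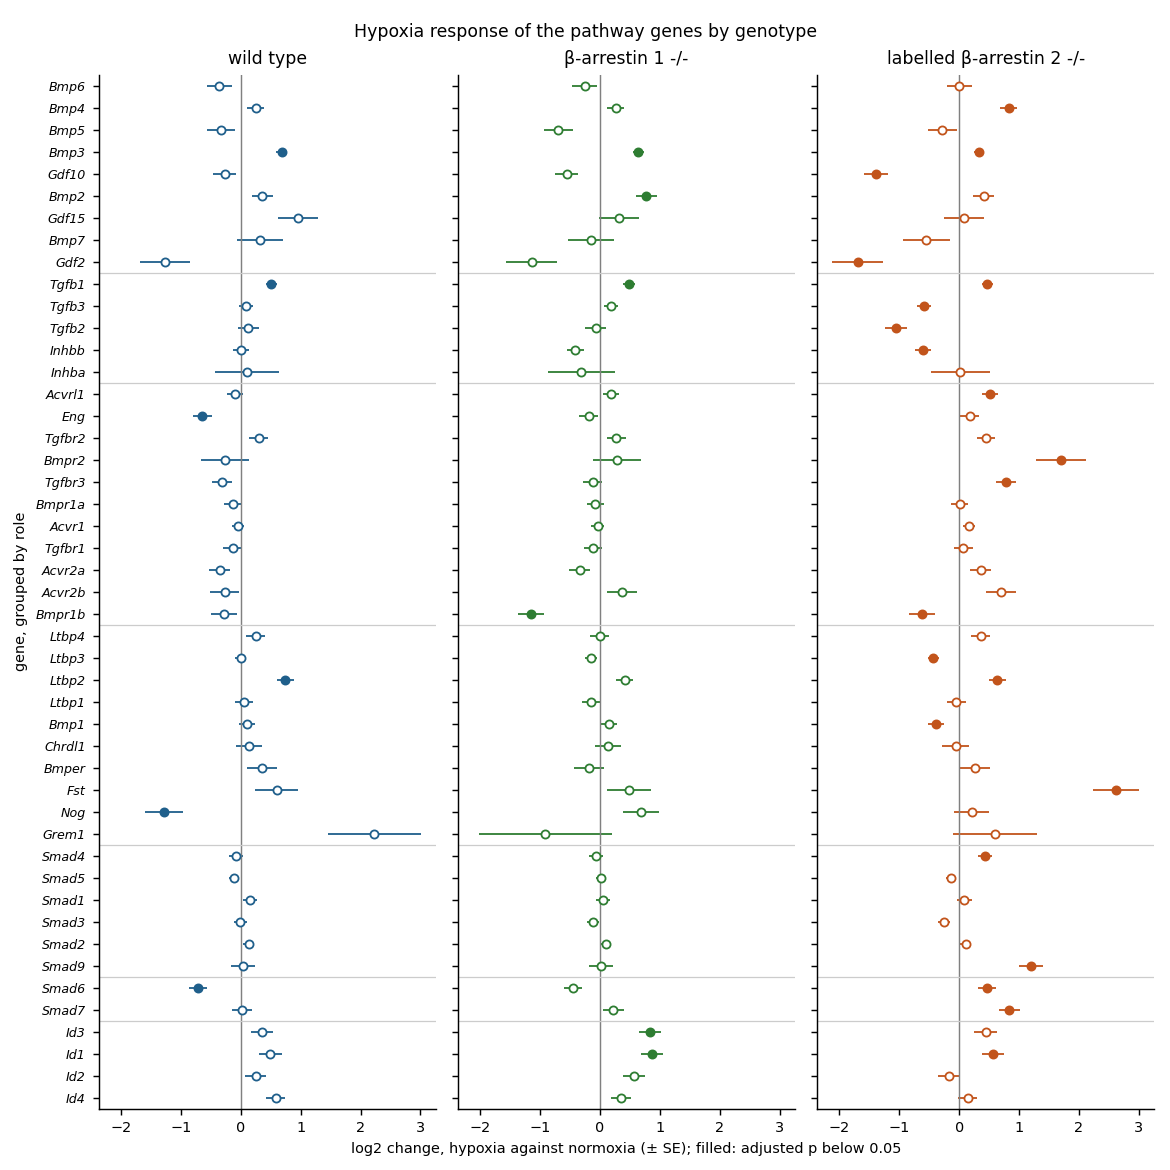
log2 change of each of the 47 genes in hypoxia against normoxia (x axis, ± SE) in wild type, β-arrestin 1 -/- and labelled β-arrestin 2 -/- lungs; filled points have an adjusted p below 0.05. There are 6 filled points in wild type, 6 in β-arrestin 1 -/- and 21 in the line labelled β-arrestin 2 -/-, and those of Tgfb1 and Bmp3 lie to the right of 0 in all 3 panels.

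Among the ligands, Tgfb1 and Bmp3 rose in hypoxia in every genotype. Tgfb1 encodes TGF-β1, the form of TGF-β that is best known for driving matrix production, and lies on chromosome 7 from 25687002 to 25704996 (mm10). It stood at 79.2, 74.9 and 83.2 CPM in wild type normoxia and at 107, 121 and 110.1 in hypoxia. In β-arrestin 1 -/- it stood at 86.4, 96.1 and 97.1 CPM in normoxia and at 125, 120.00 and 146 in hypoxia. In the line labelled β-arrestin 2 -/- the values were 76.7, 77.5 and 92.8 and 111, 111 and 121 CPM. In each genotype all 3 hypoxia libraries lay above all 3 normoxia libraries. Its log2 changes were 0.51 ± 0.10 (adjusted p = 0.006799), 0.48 ± 0.10 (adjusted p = 0.0124) and 0.47 ± 0.10 (adjusted p = 0.00362), in the order of genotypes above. The calls in wild type and in the line labelled β-arrestin 2 -/- held when each library was left out in turn. In β-arrestin 1 -/- the call was lost without β-arrestin 1 -/- normoxia replicates 0 and 1 (adjusted p 0.0156 to 0.0809 over the 6 leave-outs).

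Bmp3 is an atypical member of the family that acts as an antagonist of other BMPs in bone. Its levels were 30.8, 33.1 and 33.1 CPM in wild type normoxia and 52.97, 52.9 and 50.1 in hypoxia. They were 36.3, 38.05 and 41.1 and 57.4, 65.9 and 56.5 CPM in β-arrestin 1 -/-, and 38.3, 37.2 and 40.3 and 52.6, 49.5 and 43.7 CPM in the line labelled β-arrestin 2 -/-. No hypoxia library overlapped with normoxia in any genotype. Bmp3 rose by 0.69 ± 0.09 on the log2 scale in wild type (adjusted p = 0.000505), by 0.64 ± 0.09 in β-arrestin 1 -/- (adjusted p = 0.00128) and by 0.33 ± 0.09 in the line labelled β-arrestin 2 -/- (adjusted p = 0.0149). The difference between the last response and that of wild type, -0.35 ± 0.12, did not pass the test (adjusted p = 0.09301). The third call was lost without β-arrestin 2 -/- normoxia replicate 1 or β-arrestin 2 -/- hypoxia replicate 0 (adjusted p 0.0114 to 0.0763).

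Bmp2, a classical BMP ligand, rose in β-arrestin 1 -/- lungs, from 7.39, 7.05 and 6.81 CPM to 12.1, 11.3 and 12.95. The groups did not overlap, and the log2 change was 0.78 ± 0.17 (adjusted p = 0.0236). Its change in wild type was 0.36 ± 0.17 (adjusted p = 0.262) and in the line labelled β-arrestin 2 -/- 0.41 ± 0.17 (adjusted p = 0.1004). The Bmp2 call was lost without β-arrestin 1 -/- normoxia replicates 0, 1 and 2 or β-arrestin 1 -/- hypoxia replicate 2 (adjusted p 0.0376 to 0.09796), and in the fit of that line alone.

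Gdf2 encodes BMP9, the ligand of ALK1 and endoglin that circulates in blood and is made mainly in the liver. In wild type its few fragments were 38, 58 and 62 in normoxia and 14, 39 and 20 in hypoxia, or 1.74, 2.77 and 2.74 and 0.608, 1.65 and 0.765 CPM. It stood at 2.73, 1.83 and 3.19 CPM in the normoxia libraries labelled β-arrestin 2 -/- and at 0.303, 0.9804 and 1.09 in hypoxia, with no overlap. It fell by 1.70 ± 0.42 on the log2 scale there (adjusted p = 0.0112), a call that held in all 6 leave-outs. The change was -1.26 ± 0.41 in wild type (adjusted p = 0.0967) and -1.14 ± 0.43 in β-arrestin 1 -/- (adjusted p = 0.177). Neither change passed. In CPM the exposures did not overlap in either, though in wild type the fragments did and the nearest CPM values lay close together.

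Ltbp2, a latent TGF-β binding protein of the extracellular matrix, rose in wild type and in the line labelled β-arrestin 2 -/-. The wild type libraries held 192, 138 and 179.9 CPM in normoxia and 308, 253 and 293 in hypoxia. Those labelled β-arrestin 2 -/- held 149, 187 and 202 and 259, 292 and 285 CPM. Neither pair of groups overlapped, and the log2 changes were 0.75 ± 0.14 (adjusted p = 0.00822) and 0.64 ± 0.14 (adjusted p = 0.00699). In β-arrestin 1 -/- the groups did not overlap either, at 163, 167 and 187 and 269.6, 220.3 and 196 CPM, but the change of 0.41 ± 0.14 did not pass (adjusted p = 0.149). The wild type call ended when wild type normoxia replicate 1 was left out (adjusted p 0.0133 to 0.0639). Pericyte markers moved in the same comparisons: of 9 such genes 4 rose in wild type hypoxia, 2 in β-arrestin 1 -/- and 4 in the line labelled β-arrestin 2 -/-, and none fell. Their summed level was 453 to 577 CPM in wild type normoxia and 748 to 836 in hypoxia, without overlap. Of 8 neutrophil markers 1 rose in wild type hypoxia, 4 in β-arrestin 1 -/- and 2 in the line labelled β-arrestin 2 -/-. Their sums were 22.8 to 84.6 CPM in normoxia and 145 to 383 in hypoxia in wild type, 22.9 to 57.9 and 167 to 341 in β-arrestin 1 -/-, and 48.8 to 185 and 144 to 203 in the line labelled β-arrestin 2 -/-, where they overlapped. In wild type the sums of smooth muscle, cardiac muscle, adipocyte, T and NK cell and B and plasma cell markers were also higher in every hypoxia library. The adipocyte genes Lep and Ucp1 were at 0 in wild type normoxia, and no pericyte or neutrophil marker was at 0 in any group. The part of these marker differences in the rise of Tgfb1, Bmp3 or Ltbp2 was not tested. In RNA of whole lung fewer cells of a type and less RNA per cell cannot be told apart.

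The Id genes encode inhibitors of basic helix-loop-helix transcription factors and are direct targets of BMP-activated Smads. Id1 stood at 135, 119 and 122 CPM in β-arrestin 1 -/- normoxia and at 199, 160.02 and 327 in hypoxia, with replicate 2 far above the other two. In the line labelled β-arrestin 2 -/- it stood at 129, 134 and 136 and 179.6, 181 and 228 CPM, and in wild type at 117, 112 and 99.8 and 165, 138 and 159. All 3 genotypes had every hypoxia library above every normoxia library. The log2 changes were 0.87 ± 0.19 in β-arrestin 1 -/- (adjusted p = 0.0199), 0.56 ± 0.18 in the line labelled β-arrestin 2 -/- (adjusted p = 0.0409) and 0.50 ± 0.19 in wild type (adjusted p = 0.145), of which the wild type one did not pass. Id3 rose in β-arrestin 1 -/- from 229, 244 and 239.6 CPM to 388, 303 and 579.8, again without overlap, by 0.83 ± 0.19 on the log2 scale (adjusted p = 0.0245). Id1 and Id3 have the shortest transcripts of the 47 genes, up to 1160 and 1278 bases. Replicate 2 of β-arrestin 1 -/- hypoxia had the lowest length index, -0.78, with short transcripts at a median log2 deviation of 0.46. With that index added to the fit as a covariate both genes stayed called in β-arrestin 1 -/-. Without the 2 libraries of lowest total Id1 stayed called and Id3 did not. The part of transcript length was not tested separately. Id2 and Id4 changed in hypoxia in no genotype, with Id4 at 0.58 ± 0.16 in wild type (adjusted p = 0.0507). The Id1 call in β-arrestin 1 -/- was lost without β-arrestin 1 -/- normoxia replicates 0, 1 and 2 (adjusted p 0.00567 to 0.0941), and that in the line labelled β-arrestin 2 -/- without any one of its 6 libraries (adjusted p 0.0533 to 0.1505). Id3 lost its call without β-arrestin 1 -/- normoxia replicates 0, 1 and 2 or β-arrestin 1 -/- hypoxia replicate 2 (adjusted p 0.00831 to 0.112). Immediate early genes, which respond within minutes to stress or handling, also moved in hypoxia. Of 19, 10 rose in wild type, where no Id gene passed. In β-arrestin 1 -/- 3 rose, and in the line labelled β-arrestin 2 -/- 4 rose and 2 fell. Their summed level was 1995 to 2390.3 CPM in wild type normoxia and 2458 to 7009.96 in hypoxia, 2270.1 to 2528 and 3706 to 4914 in β-arrestin 1 -/-, and 1931 to 2317 and 2922 to 4802 in the line labelled β-arrestin 2 -/-. The summed level of 12 endothelial markers was 6408 to 7120 CPM in β-arrestin 1 -/- normoxia and 7914 to 8369 in hypoxia, without overlap. The part of the immediate early genes and of the endothelial markers in the Id values was not tested.

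**Figure D3:**
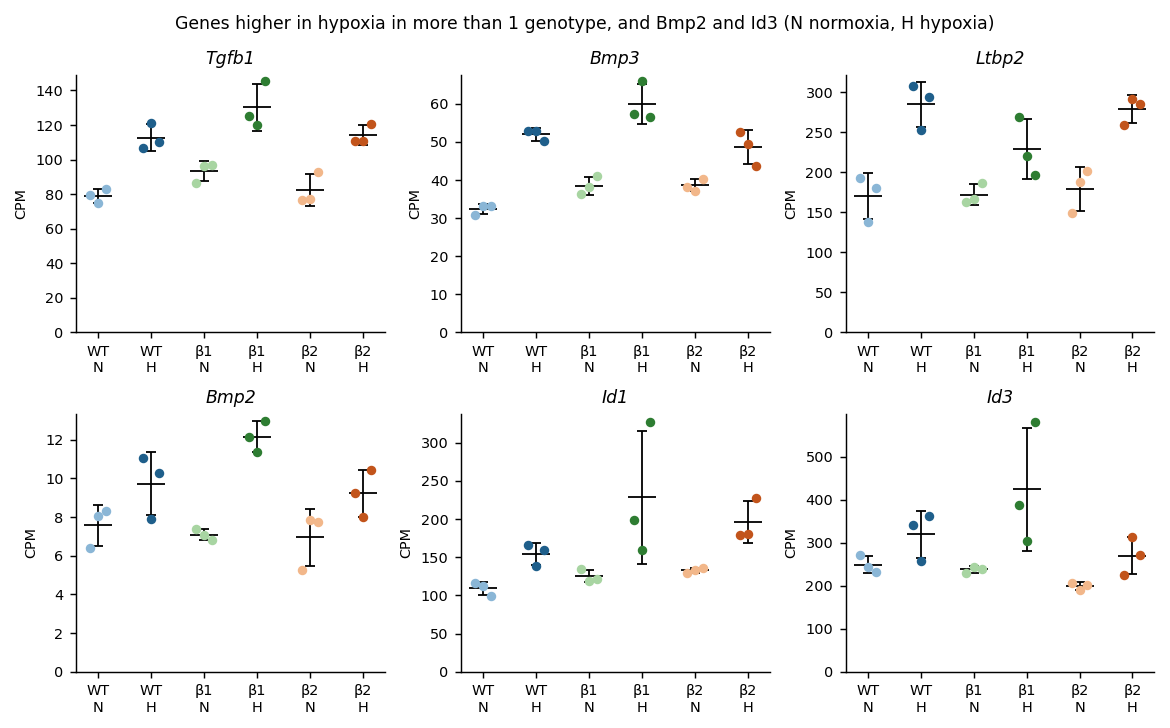
CPM of Tgfb1, Bmp3, Ltbp2, Bmp2, Id1 and Id3 in each library of the 6 groups (WT wild type, β1 β-arrestin 1 -/-, β2 labelled β-arrestin 2 -/-, N normoxia, H hypoxia); points are libraries, bars the mean and SD of 3. For Tgfb1 and Bmp3 all hypoxia points lie above the normoxia points of the same genotype, and for Id1 and Id3 replicate 2 of β-arrestin 1 -/- hypoxia stands highest, at 327 and 579.8 CPM.

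In wild type lungs 3 members fell in hypoxia: the co-receptor endoglin, the BMP antagonist noggin and the inhibitory Smad6. Eng stood at 963, 889.99 and 839 CPM in normoxia and at 594, 637 and 494 in hypoxia, without overlap, and fell by 0.64 ± 0.16 on the log2 scale (adjusted p = 0.0302). Smad6, which blocks BMP signalling at the receptor and at the level of the Smads, stood at 451, 392 and 362 and 309.9, 234 and 192 CPM, also without overlap, and fell by 0.71 ± 0.15 (adjusted p = 0.0144). Nog had 27, 25 and 18 fragments in the normoxia libraries and 7, 12 and 13 in hypoxia, or 1.24, 1.195 and 0.795 and 0.304, 0.508 and 0.497 CPM. Its groups did not overlap, with a fall of 1.28 ± 0.31 (adjusted p = 0.02999). Leaving out libraries ended each of these calls at least once. Eng lost it without wild type normoxia replicates 0 and 1 or wild type hypoxia replicate 2 (adjusted p 0.0414 to 0.119), Smad6 without wild type normoxia replicates 0 and 1 or wild type hypoxia replicates 1 and 2 (0.00301 to 0.06303) and Nog without wild type normoxia replicates 0 and 1 or wild type hypoxia replicates 0, 1 and 2 (0.0234 to 0.119). Fitted on the wild type libraries alone, Smad6 (adjusted p = 0.0754) and Nog (0.0952) did not pass. Of the 12 endothelial markers 2 rose and none fell in wild type hypoxia. Their sum was 6302 to 7165 CPM in normoxia and 6074 to 7078 in hypoxia, with overlap. The part of endothelial content in the falls of Eng and Smad6 was not tested.

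Bmpr1b, the type I BMP receptor ALK6, fell in hypoxia in both other lines. It stood at 20.1, 18.2 and 17.97 CPM in β-arrestin 1 -/- normoxia and at 7.64, 10.9 and 6.69 in hypoxia, a fall of 1.15 ± 0.22 on the log2 scale (adjusted p = 0.00968). In the line labelled β-arrestin 2 -/- it stood at 17.04, 14.9 and 10.5 and 9.53, 8.47 and 9.54 CPM, a fall of 0.62 ± 0.22 (adjusted p = 0.0499). Neither pair overlapped. The change in wild type was -0.27 ± 0.21 (adjusted p = 0.549), with overlapping groups. The first call was lost without β-arrestin 1 -/- normoxia replicate 0 (adjusted p 0.00872 to 0.05001) and the second without β-arrestin 2 -/- normoxia replicates 0 and 1 or β-arrestin 2 -/- hypoxia replicates 0, 1 and 2 (0.0232 to 0.203). The second also ended with the size factors of DESeq2 (adjusted p = 0.0561), with no filter on low counts (0.0585) and in the fit of that line alone (0.05201).

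The largest set of changes was that of the line labelled β-arrestin 2 -/- in hypoxia. Both inhibitory Smads rose, as did 2 of the 6 other Smads, 3 of the 11 receptors and co-receptors, and follistatin, while 3 of the 5 TGF-β and activin ligands fell. For 5 of the members with calls in this line, the 250 bases before a RefSeq transcription start are shown. Each of the 5 also differed from wild type in a comparison described further on, as did other members that are not shown. The 5 were chosen after their values were seen. Sequences and starts are RefSeq's on GRCm38.p6, and a promoter entry was matched for 33 of the 47 members. The RefSeq gene spans of Smad9, Smad6 and Tgfb2 reach past the start used, so these windows lie partly or wholly inside the gene. Capitals mark matches to GGCGCC, a GC-rich motif bound by BMP-regulated Smads, and to CAGAC, a short Smad-binding motif read on both strands. The motifs do not overlap each other. The strand and position are Bmpr2 chr1:59764029-59764278 (plus), Smad9 chr3:54755332-54755581 (plus), Smad6 chr9:64022060-64022309 (minus), Tgfb2 chr1:186705990-186706239 (minus) and Gdf10 chr14:33923337-33923586 (plus).
Bmpr2: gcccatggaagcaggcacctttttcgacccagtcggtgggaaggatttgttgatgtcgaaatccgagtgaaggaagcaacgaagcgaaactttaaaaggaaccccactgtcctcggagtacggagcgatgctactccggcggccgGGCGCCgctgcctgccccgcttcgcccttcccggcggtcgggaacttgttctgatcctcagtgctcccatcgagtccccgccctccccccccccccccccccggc
Smad9: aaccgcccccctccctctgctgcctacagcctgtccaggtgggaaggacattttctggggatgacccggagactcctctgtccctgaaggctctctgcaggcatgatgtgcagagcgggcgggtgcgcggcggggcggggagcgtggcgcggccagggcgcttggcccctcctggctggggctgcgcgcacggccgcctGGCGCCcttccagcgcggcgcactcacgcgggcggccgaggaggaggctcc
Smad6: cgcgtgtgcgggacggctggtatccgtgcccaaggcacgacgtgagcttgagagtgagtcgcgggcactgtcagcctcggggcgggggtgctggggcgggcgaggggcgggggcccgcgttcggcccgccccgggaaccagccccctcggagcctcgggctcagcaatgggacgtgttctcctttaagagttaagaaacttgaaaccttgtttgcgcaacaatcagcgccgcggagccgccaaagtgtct
Tgfb2: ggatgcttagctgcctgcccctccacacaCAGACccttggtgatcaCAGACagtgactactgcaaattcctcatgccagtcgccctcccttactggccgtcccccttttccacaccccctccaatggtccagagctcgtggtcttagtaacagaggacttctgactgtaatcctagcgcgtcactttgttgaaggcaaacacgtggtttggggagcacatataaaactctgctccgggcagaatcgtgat
Gdf10: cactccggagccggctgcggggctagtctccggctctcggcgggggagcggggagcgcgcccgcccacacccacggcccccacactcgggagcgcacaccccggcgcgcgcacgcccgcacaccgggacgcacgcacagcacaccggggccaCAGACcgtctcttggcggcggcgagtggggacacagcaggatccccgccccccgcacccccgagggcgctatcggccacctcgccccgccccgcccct

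In the windows shown, Bmpr2 and Smad9 each hold 1 GGCGCC, at 105 and 51 bases before the start, Tgfb2 and Gdf10 hold 2 and 1 CAGAC, and Smad6 holds neither. Other members called in this line are mixed. Ltbp3, which fell, holds 1 CAGAC and no GGCGCC, and Bmpr1b, which fell, holds CAGAC in some of its windows and no GGCGCC. By contrast Ltbp2, which rose, holds 2 CAGAC and no GGCGCC. Bmp4 and Tgfb1, which rose, hold neither, and Inhbb and Gdf2, which fell, hold neither. Eng, whose change in this line did not pass but lay above that of wild type, holds 2 CAGAC and no GGCGCC. The 33 members with an entry have 42 windows, since some have several starts. Of these windows 10 (23.8%) hold GGCGCC and 20 (47.6%) hold CAGAC on either strand, where 9.59% and 42.2% of all 32851 promoter windows hold them. By member, 9 of the 33 hold GGCGCC and 17 hold CAGAC. Windows of a gene can overlap and share a match, as in Ltbp4, and the GC content of the windows was not compared. The shares are thus not read as an enrichment. A match is a description of the letters and not a site.

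Among the receptors in this line, Bmpr2 changed most. It encodes the type II BMP receptor, lies on chromosome 1 from 59764637 to 59870859 (mm10), and stood at 43.2, 53.9 and 76.5 CPM in normoxia and at 258, 153 and 152 in hypoxia. The groups did not overlap, the log2 change was 1.70 ± 0.42 (adjusted p = 0.0103), a ratio of 3.24. Wild type libraries held 167, 148 and 186 CPM in normoxia and 223, 123 and 71.2 in hypoxia, and β-arrestin 1 -/- libraries 128, 84.02 and 140.4 and 212, 151 and 65.6. These hypoxia libraries spread over a wide range that covered the normoxia values, with log2 changes of -0.26 ± 0.40 (adjusted p = 0.806) and 0.29 ± 0.40 (adjusted p = 0.7404). The Bmpr2 call was lost without β-arrestin 2 -/- hypoxia replicate 0 (adjusted p 0.0137 to 0.05301).

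Tgfbr3, or betaglycan, which presents TGF-β2 to its receptors, rose from 176, 178 and 179.9 CPM to 338, 292 and 287 in the same libraries. Acvrl1, the endothelial type I receptor for BMP9, rose from 588, 639 and 785 CPM to 979.7, 1009 and 886. Neither overlapped between exposures. The log2 changes were 0.78 ± 0.16 (adjusted p = 0.00461) and 0.51 ± 0.14 (adjusted p = 0.0153). Tgfbr3 kept its call in all 6 leave-outs, and Acvrl1 lost it without β-arrestin 2 -/- normoxia replicates 0 and 1 or β-arrestin 2 -/- hypoxia replicate 0 (adjusted p 0.00688 to 0.0657). Of the 12 endothelial markers 4 rose in this comparison and none fell, with a summed level of 5269.9 to 6318 CPM in normoxia and 6384 to 6898 in hypoxia. No endothelial marker was at 0 in any group, and the part of this difference in the receptor values was not tested.

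Of the Smads, Smad9, the third BMP-regulated Smad, rose from 9.700, 8.72 and 9.28 CPM to 22.3, 18.7 and 22.7. Every hypoxia library lay above every normoxia library, with a log2 change of 1.20 ± 0.20 (adjusted p = 0.00113). Smad7, the inhibitory Smad that acts on both branches, rose from 115, 129 and 155 CPM to 249.5, 228 and 235, by 0.84 ± 0.18 (adjusted p = 0.00447). Smad6 rose from 215, 252 and 277 CPM to 359, 312 and 361, by 0.47 ± 0.15 (adjusted p = 0.0351). None of the 3 overlapped between exposures. Smad4, the common partner, rose by 0.43 ± 0.12 (adjusted p = 0.0161). Smad1, Smad2, Smad3 and Smad5 had changes between -0.26 and 0.11 that did not pass. Smad9 and Smad7 kept their calls in all leave-outs. Smad6 lost it without β-arrestin 2 -/- normoxia replicates 0 and 1 or β-arrestin 2 -/- hypoxia replicates 0 and 2 (adjusted p 0.0293 to 0.133) and Smad4 without β-arrestin 2 -/- normoxia replicate 0 or β-arrestin 2 -/- hypoxia replicate 0 (0.0241 to 0.0764).

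Bmp4, another classical BMP ligand, rose from 30.04, 36.4 and 41.5 CPM to 61.6, 71.4 and 58.5 in the line labelled β-arrestin 2 -/-. Its groups did not overlap, and the log2 change was 0.83 ± 0.14 (adjusted p = 0.00135). Its changes were 0.25 ± 0.14 in wild type (adjusted p = 0.355) and 0.27 ± 0.14 in β-arrestin 1 -/- (adjusted p = 0.335). Fst, which encodes follistatin, a soluble binder of activins, had the largest change of any member, from 2.73, 4.05 and 4.76 CPM to 25.4, 19.8 and 26.2. It lies on chromosome 13 from 114452262 to 114458730, rose by 2.62 ± 0.38 on the log2 scale (adjusted p = 0.000438), a ratio of 6.14, and stood between 5.79 and 20.3 CPM in the 6 wild type libraries. Both calls held in all 6 leave-outs.

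The members that fell in this line were mostly ligands. Tgfb2, the gene of TGF-β2, stood at 50.7, 57.5 and 62.1 CPM in normoxia and 24.6, 28.7 and 28.8 in hypoxia, and fell by 1.05 ± 0.18 on the log2 scale (adjusted p = 0.00152). Tgfb3, the gene of TGF-β3, stood at 84.5, 81.5 and 96.3 and 56.4, 61.7 and 57.02 CPM, and fell by 0.58 ± 0.11 (adjusted p = 0.00294). Tgfb1 rose in the same libraries, as given above. Inhbb, the activin B subunit, stood at 43.3, 38.9 and 39.2 and 23.7, 30.9 and 25.5 CPM, and fell by 0.60 ± 0.14 (adjusted p = 0.00707). Gdf10, or BMP3b, stood at 26.1, 32.04 and 37.2 and 14.5, 11.3 and 10.4 CPM, and fell by 1.40 ± 0.20 (adjusted p = 0.000416). Ltbp3, which binds latent TGF-β, stood at 239, 244 and 288 and 186, 204 and 183 CPM, and fell by 0.43 ± 0.10 (adjusted p = 0.00687). In none of these 5 genes, picked by their adjusted p, did the exposures overlap, which is not separate support. All 5 calls held in every leave-out. Bmp1, a procollagen protease and not a ligand, fell by 0.39 ± 0.13 (adjusted p = 0.0453), a call lost without any one of the 6 libraries (adjusted p 0.0514 to 0.184), with the size factors of DESeq2 (0.0518) and with no filter on low counts (0.05601).

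Markers of fibroblasts and mesothelium fell in the same comparison. Of 10 fibroblast markers 5 fell and 1 rose, and their summed level was 3494 to 4218 CPM in normoxia and 2120.4 to 2644 in hypoxia. Of 8 mesothelial markers 6 fell and none rose, with sums of 826 to 1092 and 417 to 565 CPM. Smooth muscle markers fell in 4 of 9 and rose in none, with sums of 1754 to 3640.1 and 1439 to 1732 CPM. No marker of these lists was at 0 in a group, and their part in the falls of Tgfb2, Tgfb3, Inhbb, Gdf10 and Ltbp3 was not tested.

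How each line differed from wild type at a given oxygen pressure was asked next. Between β-arrestin 1 -/- and wild type lungs edgeR called 0 of the 47 genes in normoxia, against 0.221% of all genes (0.078% higher and 0.143% lower), and 0 in hypoxia, against 0.201% (0.0845% higher and 0.117% lower). At an unadjusted p below 0.05 there were 3 members (6.38%, where 8.71% of all genes did so) in normoxia and 12 (25.5%, where 11.3% of all genes did so) in hypoxia, and DESeq2 and limma also called 0 in both. In the libraries labelled β-arrestin 2 -/- 8 members differed from wild type in normoxia, 2 higher and 6 lower, against 9.49% of all genes (4.0% higher and 5.49% lower). In hypoxia 1 member differed, and was lower, against 0.923% of all genes (0.344% higher and 0.578% lower). These comparisons share the libraries labelled β-arrestin 2 -/- with the hypoxia comparison of that line above, so their values are not separate evidence.

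In normoxia Bmpr2 stood at 43.2, 53.9 and 76.5 CPM in the libraries labelled β-arrestin 2 -/- and at 167, 148 and 186 in wild type, a log2 change of -1.53 ± 0.41 (adjusted p = 0.0332). Acvr2b, a type II receptor for activins, was lower at 1.63, 2.96 and 2.42 against 4.22, 4.69 and 3.62 CPM (-0.83 ± 0.25, adjusted p = 0.04796). Both receptors were lower in all 3 libraries without overlap. Smad6, Smad7 and Smad9 were lower as well. The values of Smad6 were 215, 252 and 277 CPM against 451, 392 and 362 in wild type (-0.69 ± 0.15, adjusted p = 0.0142). Those of Smad7 were 115, 129 and 155 against 255, 205 and 213 CPM (-0.76 ± 0.17, adjusted p = 0.0189). Smad9 had 9.700, 8.72 and 9.28 against 14.2, 19.2 and 14.5 CPM (-0.79 ± 0.20, adjusted p = 0.0273). The ligand Bmp4 was lower too, at 30.04, 36.4 and 41.5 against 60.4, 48.5 and 56.4 CPM (-0.61 ± 0.14, adjusted p = 0.0189). None of these 6 genes overlapped between the lines. They were picked by their adjusted p, so this is not separate support, and the share of all genes without overlap was not counted.

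Gdf10 and Id4 were higher in the normoxia libraries labelled β-arrestin 2 -/-. Gdf10 stood at 26.1, 32.04 and 37.2 CPM against 15.04, 19.1 and 19.1 in wild type, a log2 change of 0.84 ± 0.20 (adjusted p = 0.0202). Id4 stood at 15.99, 16.3 and 11.01 CPM against 9.22, 9.75 and 8.57, a log2 change of 0.65 ± 0.16 (adjusted p = 0.0244). Neither overlapped with wild type. Leaving out 1 of the 6 libraries left between 1 and 10 members called, with 1 each without wild type normoxia replicate 0 and without normoxia replicates 0 or 1 labelled β-arrestin 2 -/-, and 3 and 4 without wild type normoxia replicates 1 and 2. Acvr2b lost its call in all 6 leave-outs (adjusted p 0.0571 to 0.194), with no filter on low counts (0.0578) and in the fit of only these groups (0.0557). Bmpr2 and Id4 lost theirs in 5 of 6 (adjusted p up to 0.141 and 0.113), Bmp4 in 4, Smad7, Smad9 and Gdf10 in 3 and Smad6 in 2.

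Markers of several cell types differed in the same comparison. The sum of the 12 endothelial markers was 5269.9 to 6318 CPM in these libraries and 6302 to 7165 in wild type, with 2 of them lower and none higher. Of 9 smooth muscle markers 6 were higher, with sums of 1754 to 3640.1 against 1134 to 1329 CPM. Of 12 cardiac muscle markers 5 were higher (521 to 6764 against 74.2 to 422 CPM), of 5 ciliated airway markers 3 (1086 to 1379.7 against 739.96 to 889.6), of 7 club and secretory airway markers 6 (5453 to 11639.5 against 3664 to 5691) and of 8 tested adipocyte markers 1 (69.8 to 365 against 19.8 to 60.01). The sums of smooth muscle, cardiac muscle, ciliated airway and adipocyte markers did not overlap, and those of endothelial and club markers did. Replicate 0 labelled β-arrestin 2 -/- stood apart, at 6764 CPM for cardiac muscle, 11639.5 for club airway and 3640.1 for smooth muscle. Without this library 1 member was called. Of these lists, Lep and Ucp1 were at 0 in wild type normoxia. The part of these differences in the 8 calls was not tested.

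In hypoxia Tgfb2 was the member that differed, at 24.6, 28.7 and 28.8 CPM in the libraries labelled β-arrestin 2 -/- and 37.3, 53.4 and 55.4 in wild type. The groups did not overlap, and the log2 change was -0.83 ± 0.18 (adjusted p = 0.0415). The call was lost without wild type hypoxia replicates 1 and 2 or β-arrestin 2 -/- hypoxia replicates 0, 1 and 2 (adjusted p 0.0138 to 0.1904), and in the fit of only these groups (adjusted p = 0.0738).

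Whether the response to hypoxia itself differed from that of wild type was tested as an interaction. For β-arrestin 1 -/- edgeR called 0 members, against 0.0% of all genes, with 4 members (8.51%) and 898 genes (5.84%) at an unadjusted p below 0.05, and DESeq2 called 0 members. The calls for Bmp2, Id1, Id3 and Bmpr1b in that line are thus not shown to differ from wild type. For the line labelled β-arrestin 2 -/- 8 members were called, 5 with a response above that of wild type and 3 below it, against 6.05% of all genes (3.49% above and 2.56% below). Smad6 fell by 0.71 ± 0.15 in wild type and rose by 0.47 ± 0.15 in this line, a difference of 1.18 ± 0.21 (adjusted p = 0.00811). Tgfbr3 had a difference of 1.09 ± 0.23 (adjusted p = 0.0169), from -0.31 in wild type and 0.78 in this line. These 2 calls held in all 12 leave-outs. Smad9 differed by 1.17 ± 0.28 (adjusted p = 0.0272), Fst by 2.02 ± 0.52 (adjusted p = 0.03401) and Eng, which fell in wild type, by 0.82 ± 0.22 (adjusted p = 0.0424). Below wild type were Tgfb2 at -1.18 ± 0.26 (adjusted p = 0.0195), Gdf10 at -1.13 ± 0.28 (adjusted p = 0.0308) and Tgfb3 at -0.68 ± 0.16 (adjusted p = 0.0263). Bmpr2 had a difference of 1.96 ± 0.58 that did not pass (adjusted p = 0.0551). The interaction uses the same libraries as the comparisons of this line above.

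Several of these 8 differences came with a lower or higher starting level in normoxia. Smad6 and Smad9 began lower than wild type in normoxia, at -0.69 and -0.79 on the log2 scale, and Gdf10 began higher, at 0.84. In hypoxia the same genes differed from wild type by 0.49, 0.38 and -0.29, none of which passed. The 6 calls other than Smad6 and Tgfbr3 each ended without at least 1 library. Tgfb2 lost it without wild type normoxia replicate 1, wild type hypoxia replicates 1 and 2 or β-arrestin 2 -/- hypoxia replicate 0 (adjusted p 0.005896 to 0.0599), and Smad9 without wild type normoxia replicate 1, β-arrestin 2 -/- normoxia replicates 0 and 1 or β-arrestin 2 -/- hypoxia replicates 0 and 2 (0.00853 to 0.0756). Tgfb3 lost it without wild type normoxia replicates 0 and 1, wild type hypoxia replicate 1 or β-arrestin 2 -/- hypoxia replicates 0 and 2 (0.0205 to 0.0686). Gdf10, Fst and Eng lost it in 8, 8 and 9 of the 12 leave-outs, with adjusted p up to 0.0922, 0.0932 and 0.102.

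**Figure D4:**
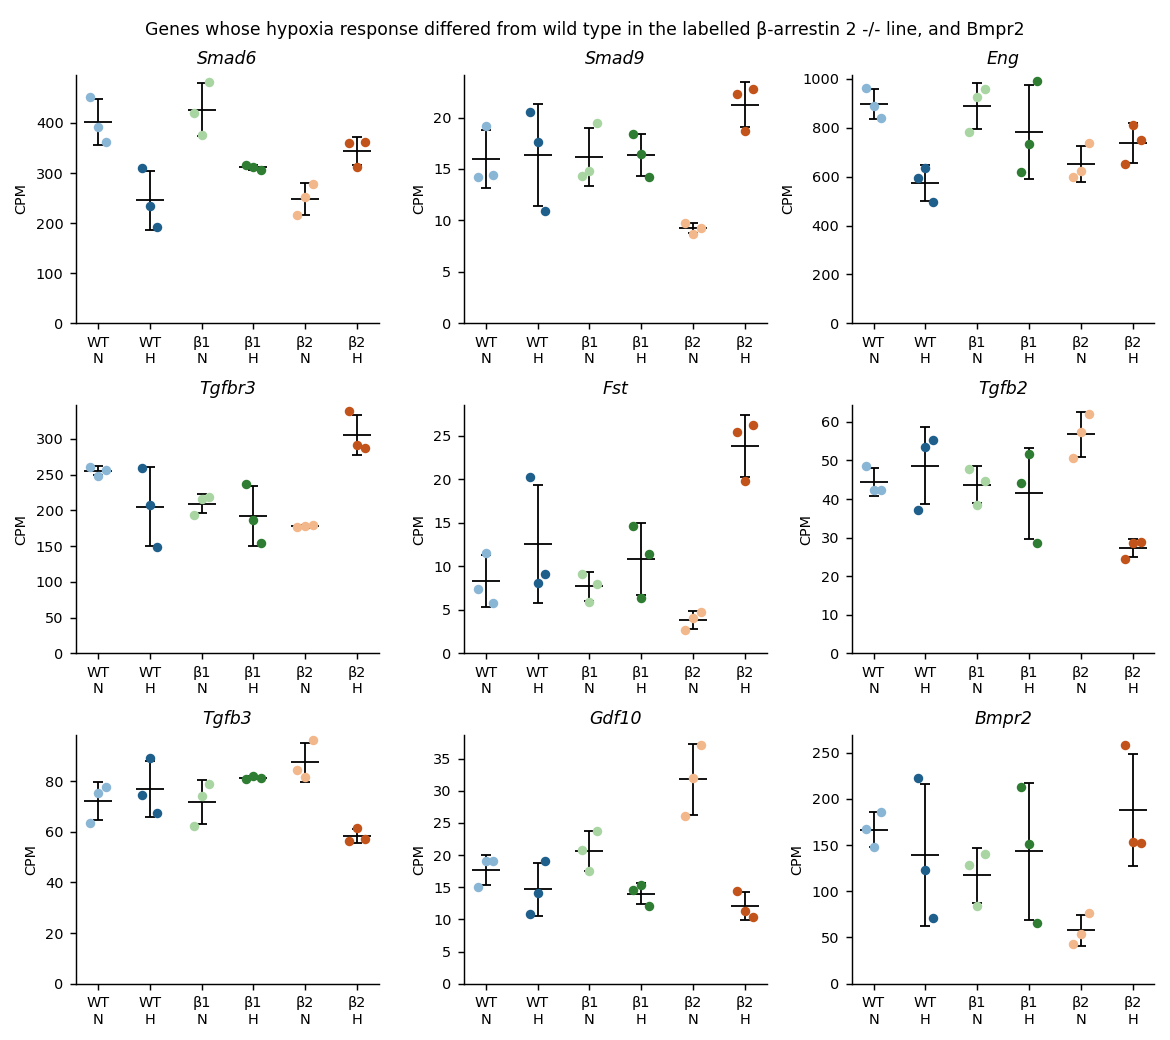
CPM of the 8 members whose hypoxia response differed from wild type in the line labelled β-arrestin 2 -/-, and of Bmpr2, in each library of the 6 groups (WT wild type, β1 β-arrestin 1 -/-, β2 labelled β-arrestin 2 -/-, N normoxia, H hypoxia); points are libraries, bars the mean and SD of 3. Smad6 falls from 401 to 245 CPM on average in wild type and rises from 248 to 344 in the line labelled β-arrestin 2 -/-.

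Bmpr2 has the longest transcript of the 47 genes, up to 12899 bases, and its level followed the length index of the libraries. The 5 libraries with the lowest index were also the 5 with the least Bmpr2, at 43.2, 53.9 and 76.5 CPM in the normoxia libraries labelled β-arrestin 2 -/-, 65.6 in β-arrestin 1 -/- hypoxia replicate 2 and 71.2 in wild type hypoxia replicate 2. The 2 libraries with the highest index, wild type hypoxia replicate 0 and hypoxia replicate 0 labelled β-arrestin 2 -/-, held the most, 223 and 258 CPM. Bmpr2 is itself among the 1620 long genes behind the index. Over all genes the median log2 change in normoxia of the libraries labelled β-arrestin 2 -/- against wild type was 0.24 for transcripts up to 2000 bases and -0.28 for those over 8000. In hypoxia against normoxia in that line it was -0.22 and 0.26. With the index as a covariate the log2 change of Bmpr2 in that line's hypoxia was 0.79 and still called, and that in normoxia against wild type was -0.59 and no longer called. Smad6, Smad7, Smad9, Bmp4, Acvr2b and Id4 also lost their normoxia calls with the covariate, at log2 changes of -0.54, -0.50, -0.53, -0.39, -0.58 and 0.69, and Gdf10 kept it at 0.96. Eng (-0.66), Id3 (-0.65), Smad1 (0.33) and Smad3 (0.34) gained a call in that comparison with the covariate. In the hypoxia response of that line Bmp1, Bmp3, Bmpr1b and Smad6 lost theirs, at -0.23, 0.26, -0.64 and 0.33, and the other 17 stayed called. Bmp5 (-0.78), Bmpr1a (-0.31), Id3 (0.73), Smad3 (-0.42) and Smad5 (-0.24) gained a call there, so that 22 were called in all. Among the interactions Smad6 (1.02), Tgfbr3 (0.76), Eng (1.03), Tgfb2 (-1.40), Tgfb3 (-0.70) and Gdf10 (-1.27) stayed called, Smad9 (0.89) and Fst (1.76) did not, and Smad3 (-0.45) was gained. The index differs between the groups compared, so length and condition cannot be fully told apart.

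**Figure D5:**
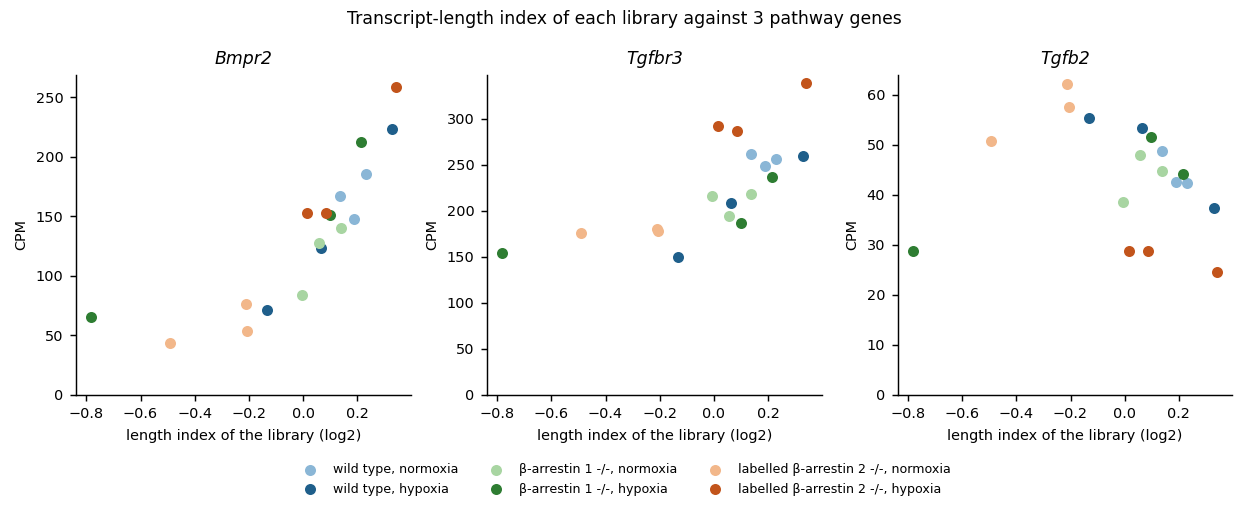
CPM of Bmpr2, Tgfbr3 and Tgfb2 (y axes) against the length index of each of the 18 libraries (x axis, log2), coloured by group. Bmpr2 is lowest in the 5 libraries with the lowest index, whereas for Tgfb2 the 3 hypoxia libraries labelled β-arrestin 2 -/- (24.6, 28.7 and 28.8 CPM) lie below other libraries of a like index.

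A wider list of 107 pathway genes outside the 47, of which 90 were tested, was read from the same fit. In wild type hypoxia 5 of the 90 changed, or 5.56%, in β-arrestin 1 -/- 7 (7.78%) and in the line labelled β-arrestin 2 -/- 33 (36.7%), 19 higher and 14 lower. Of all genes tested 4.76%, 2.95% and 21.9% changed in the same order, so the wild type share was close to that of all genes. For the counts in the line labelled β-arrestin 2 -/- that follow, 11.1% of all genes rose and 10.8% fell. Among other ligands Gdf11, a close relative of myostatin, rose in all 3, by 1.96 ± 0.38, 1.47 ± 0.37 and 1.28 ± 0.37 on the log2 scale. Gdf6 rose in β-arrestin 1 -/- (2.48 ± 0.44) and in the line labelled β-arrestin 2 -/- (2.20 ± 0.47). All 19 ligands of that list together summed to between 8.11 and 19.03 CPM in a library, so Gdf11 and Gdf6 changed at low levels. Of 22 tested transcripts commonly induced by BMP or TGF-β, Msx1, a BMP target in development, rose in all 3, by 1.36 ± 0.18, 1.57 ± 0.18 and 1.40 ± 0.19. In the line labelled β-arrestin 2 -/- 7 of the 22 rose and 6 fell. The risers were Msx1, Cyr61, Nox4, Snai2, Fn1, Ctgf and Atoh8. The fallers were Timp1, an inhibitor of metalloproteinases (-2.13 ± 0.26), the collagen genes Col3a1 (-1.84 ± 0.25), Col1a1 and Col1a2, and Acta2 and Tagln. These collagen genes are also among the fibroblast markers above, and Acta2 and Tagln among the smooth muscle markers. Of the 6 fallers only Timp1 is thus outside those marker lists.

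Genes for the activation of latent TGF-β moved both ways in that line, with 4 of 13 higher and 4 lower. Thbs1, or thrombospondin 1, fell by 2.14 ± 0.37 and Itgb6, the integrin chain that frees TGF-β in epithelium, by 1.57 ± 0.21, while Lrrc32, which holds latent TGF-β on the cell surface, rose by 1.29 ± 0.13. Of 21 intracellular modulators 5 rose and 1 fell, led by the Smad phosphatase gene Ppm1a (0.64 ± 0.08) and the Smad ubiquitin ligase gene Smurf2 (0.58 ± 0.17). Pmepa1, a TGF-β-induced inhibitor of the pathway, rose in wild type (0.41 ± 0.11) and β-arrestin 1 -/- (0.46 ± 0.11) and fell in the line labelled β-arrestin 2 -/- (-0.36 ± 0.11), a difference from wild type of -0.77 ± 0.16 that passed the test (adjusted p = 0.0152). Of 17 other antagonists and proteases Bgn, the proteoglycan biglycan, rose in wild type (0.56 ± 0.14) and β-arrestin 1 -/- (0.57 ± 0.14), and Tll1, a protease related to Bmp1, fell in β-arrestin 1 -/- (-1.12 ± 0.27) and the line labelled β-arrestin 2 -/- (-0.82 ± 0.25). Of 10 other receptors and co-receptors Rgma, a BMP co-receptor, rose in the line labelled β-arrestin 2 -/- (0.62 ± 0.12). Against wild type in normoxia 12 of the 90 (13.3%) differed in the libraries of that label, 4 higher and 8 lower. Of all genes 9.49% did so. The lower ones included Gdf6 (-1.83 ± 0.48), Lrrc32 (-0.67 ± 0.13), Smurf2 (-0.65 ± 0.17), Rgma (-0.52 ± 0.12) and Ppm1a (-0.49 ± 0.08). Their rises in hypoxia thus began from a lower level. In the interaction of that line 13 (14.4%) were called, against 6.05% of all genes. The part of transcript length was not tested.

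The other 20 of the 47 genes were called by edgeR in none of the 9 comparisons as fitted above. They were the ligands Bmp5, Bmp6, Bmp7, Gdf15 and Inhba, the receptors Bmpr1a, Acvr1, Acvr2a, Tgfbr1 and Tgfbr2, the modulators Bmper, Grem1, Chrdl1, Ltbp1 and Ltbp4, the signal-carrying Smad1, Smad2, Smad3 and Smad5, and Id2. Other fits, leave-outs aside, called 8 of the 20 in at least 1 comparison. DESeq2 called Tgfbr2 for hypoxia in the line labelled β-arrestin 2 -/- and for that line against wild type in normoxia. Bmp5, Bmpr1a, Acvr2a, Grem1, Smad1, Smad3 and Smad5 were called with the length covariate, without the 2 libraries of lowest total or, for Acvr2a, also with only the groups compared. The authors' deposited table passes Bmp5, Gdf15, Grem1, Id2, Chrdl1 and Tgfbr2 in at least 1 comparison. In the fit of all libraries Smad5 had log2 changes of -0.11, 0.01 and -0.14 in the 3 hypoxia comparisons, and the type I BMP receptor Bmpr1a of -0.13, -0.08 and 0.01. Grem1, a BMP antagonist, had a wide error, with 4, 5 and 2 fragments in wild type normoxia and 15, 13 and 32 in hypoxia and a log2 change of 2.23 ± 0.77 (adjusted p = 0.114).

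The authors' deposited table of Cuffdiff comparisons gives a q-value below 0.05 for 10 of the 47 genes for hypoxia in wild type, 11 in β-arrestin 1 -/- and 20 in the line labelled β-arrestin 2 -/-, where 8.98%, 7.8% and 18.2% of all genes in that table passed. Of the members called by edgeR, 6 of 6, 6 of 6 and 18 of 21 also passed in the authors' deposited table with the same direction. For the libraries labelled β-arrestin 2 -/- against wild type in normoxia the authors' deposited table passes 11 members, all 8 of the edgeR calls among them, against 14.6% of all genes. In hypoxia it passes 5 members, Tgfb2 among them, against 5.28%. For β-arrestin 1 -/- against wild type the authors' deposited table passes 1 member in normoxia, Bmpr2, against 4.33% of all genes, and 2 in hypoxia, Id1 and Nog, against 4.51%.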

How the data were processed

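The submitters' processing notes name FastQC, TopHat, Cuffdiff and the mouse build mm10, without their roles, and no version or gene annotation is given in the sources used here. Per gene and library, the authors deposited estimated counts that are not normalized, 93.3% of them whole. They also deposited FPKM values, scaled across libraries by the authors. Their table of comparisons was deposited with p-values and q-values, of which the q-value was used, and a test score, of which the sign was used. There were 0 unmapped sample columns.

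The genes, lists and tests were chosen with earlier results of these data known. The 5 features whose status was HIDATA (no estimate) were dropped and 20 with status FAIL kept. Rounded estimated counts went into edgeR 4.0.16 (R 4.3.3; filterByExpr, TMM scaling, quasi-likelihood F-tests, no replicate block), with Benjamini-Hochberg adjustment over 15388 genes. Every adjusted p is from this test unless a leave-out or another fit is named. In those it is from the named fit, adjusted over the genes tested there. CPM values are TMM-scaled. Whether groups overlapped was read from CPM for the members only, and the share of all genes without overlap was not counted. Replicate libraries differed by more than counting noise in each pair. The test was run on simulated data first. Alternatives were DESeq2 1.42.0, edgeR with its size factors or unfiltered, limma 3.58.1 with log2(FPKM + 1) or log2(FPKM + 0.1), filtered at 1 FPKM in 3 libraries or unfiltered, fits of only the compared groups, the replicate block and each of the 18 libraries left out. A fit without the 2 libraries of lowest total, and one with the length index as covariate (12350 genes, 92.9% of them with a transcript length), were added after seeing the data. Genes described by library are the members called in at least 1 comparison (27; beyond 25 those with the largest change), plus Bmpr2, Bmp4, Id1, Tgfb1 and Gdf2. Values were given for up to 3 called genes per list of other pathway genes. Figures were drawn with matplotlib 3.10.9.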

Additional observations from a re-analysis of the deposited data

Results flagged for a closer look

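The hypoxia response of 8 of the 47 genes differed between the line labelled β-arrestin 2 -/- and wild type by an interaction test in edgeR, against 6.05% of all genes. The differences in log2 change were 2.02 for Fst, 1.18 for Smad6, 1.17 for Smad9, 1.09 for Tgfbr3 and 0.82 for Eng, and -1.18 for Tgfb2, -1.13 for Gdf10 and -0.68 for Tgfb3. Smad6 and Eng moved in opposite directions in the 2 lines, at -0.71 and -0.64 in wild type and 0.47 and 0.18 in the line labelled β-arrestin 2 -/-, where the change of Eng did not pass. Tgfb2, Gdf10 and Tgfb3 overlapped between exposures in wild type and did not in the other line. They were picked by the interaction on the same libraries, so this is not separate support.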

How the results depend on the processing

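No call of a member changed direction in any alternative. DESeq2 called 14 members in normoxia and 4 in hypoxia for the libraries labelled β-arrestin 2 -/- against wild type, and 16 in the interaction of that line. Limma called 0 in that hypoxia comparison with a pseudocount of 1, 0 with 0.1 and 0 with no filter. With only the groups compared, where fewer samples enter each fit, 0 members were called for hypoxia in β-arrestin 1 -/-, 0 for the hypoxia comparison of the libraries labelled β-arrestin 2 -/- with wild type and 14 in the interaction. Without the 2 libraries of lowest total 10 were called for hypoxia in wild type, and with the length index 5 and 2 for the libraries labelled β-arrestin 2 -/- against wild type in normoxia and hypoxia. Apart from the construction of the smaller fits, the cause was not tested.

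Pairing of same-numbered libraries was not clear: their deviations correlated between -0.212 and 0.464, and in no comparison did every library match best with its own number. In 3 comparisons 4 of 6 did: hypoxia in the line labelled β-arrestin 2 -/-, that line against wild type in normoxia, and β-arrestin 1 -/- against wild type in hypoxia. In the others 0 or 2 of 6 did, so partial pairing is not excluded. With the replicate number as a block 0 members were called for the libraries labelled β-arrestin 2 -/- against wild type in hypoxia, 6, 6 and 20 for hypoxia in the 3 genotypes and 8 in the interaction. Bmpr1b lost its hypoxia call in the line labelled β-arrestin 2 -/- (adjusted p = 0.0558). Against wild type Acvr2b lost its call in normoxia (0.0573), where Tgfbr3 entered, and Tgfb2 its call in hypoxia (0.0695).

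With 1 library left out the members called ran from 2 to 6 for hypoxia in wild type, from 1 to 7 in β-arrestin 1 -/- and from 13 to 20 in the line labelled β-arrestin 2 -/-. They ran from 1 to 10 and from 0 to 4 for that line against wild type in normoxia and hypoxia, and from 2 (without wild type normoxia replicate 1) to 16 (without wild type hypoxia replicate 0) in its interaction. The wild type count was 3 without normoxia replicate 0 or hypoxia replicate 2, and that of β-arrestin 1 -/- was 2 and 3 without normoxia replicates 1 and 2. The interaction count was 3 without wild type hypoxia replicate 1 or hypoxia replicates 0 or 2 labelled β-arrestin 2 -/-, 4 without wild type normoxia replicate 0, wild type hypoxia replicate 2 or normoxia replicate 1 labelled β-arrestin 2 -/-, and 5 without normoxia replicate 0 of that label.

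Over all genes DESeq2 called 1280, 841 and 4116 for hypoxia in the 3 genotypes, where edgeR called 733, 454 and 3370. It called 176 and 154 for β-arrestin 1 -/- against wild type in normoxia and hypoxia (edgeR 34 and 31), 2753 and 481 for the libraries labelled β-arrestin 2 -/- (edgeR 1460 and 142), and 9 and 1873 in the interactions (edgeR 0 and 931). With only the groups compared the counts in the same order were 495, 47, 4255, 109, 12, 2638, 84, 1 and 1540. With the length index they were 1584, 861, 2654, 79, 49, 499, 476, 0 and 673. Depth limits Grem1, Inhba, Nog and Gdf2, which had single-digit fragment counts in some libraries.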
